A study of Mus musculus with 27 samples.

Results

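Natural killer (NK) cells are innate lymphocytes that kill stressed, infected or transformed cells without a rearranged antigen receptor. They weigh signals from activating receptors, such as NKp46 (Ncr1) and NK1.1 (Klrb1c), against inhibitory receptors that read MHC class I. Killing is done by perforin, which opens the target membrane, and by granzymes, the serine proteases that enter through it. In tumours NK cells also release chemokines such as Ccl5 and Xcl1, which are known to draw dendritic cells.

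The cells described here are the non-cycling NK cells of mouse MC38 tumours, 1324 of 20299 kept cells. A kept cell had at least 1000 UMIs (unique molecular identifiers, 1 per captured transcript), at least 500 genes and at most 10% mitochondrial UMIs. A member had at least 2 UMIs of Ncr1 plus Klrb1c, at most 1 of Cd3d, Cd3e and Cd3g together, 0 of Csf1r plus Adgre1, and at most 1 of Mki67 plus Top2a. The cells were thus chosen by the measured UMIs of those 9 genes, whose levels below are descriptions.

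The study compared 2 kinds of Ogt-flox mice, without (WT) and with (KO) Lyz2-cre. Ogt encodes O-GlcNAc transferase, and Lyz2-cre is active in myeloid cells (macrophages, monocytes and neutrophils), a lineage to which NK cells do not belong. MC38 is a colon adenocarcinoma line grown in mice, and CD45-positive immune cells were taken from the tumours. Both groups carry the floxed allele. The sources used here do not give strain, age, sex, number of animals or time of tumour growth. The labels list 2 single cell samples per genotype, but each genotype comes as 1 matrix whose barcodes do not tell the samples apart. Each genotype is therefore 1 sample, no difference below has a replicate check, and no test was made. Intervals are 95% and cover counting error only.

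The WT matrix held 778 of these cells among 10213 kept cells, and the KO matrix 546 among 10086. Median depth was 7033.5 UMIs in WT and 7148.5 in KO, and the summed NK UMIs were 6297601 and 4604285. Of the kept barcodes, 25 occurred in both matrices, and 0 of those were NK cells. Scrublet, a doublet caller, marked 30 WT and 10 KO members, which were retained (left out as an alternative).

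The label was set beside genes the rule did not use. Of these, Gzma, Klra4 and Klra8 were named as its markers with earlier results of these data known, so their levels are descriptions. Gzma, a granzyme of mouse NK cells, was found in 91.6% of both WT and KO members. After each cell was thinned to 1000 UMIs, Gzma was found in 82.1% and 86.1% of members. It was found in 11.2% and 13.2% of thinned CD8 T cells. In thinned macrophages (median depths 8061 and 8075.5 UMIs before thinning) it was found in 1.61% and 1.21%. The part of free RNA in these shares was not tested. Klra4 (the activating receptor Ly49D) was found in 48.7% and 49.5% of unthinned members and Klra8 (Ly49H, also activating) in 48.1% and 43.6%. Eomes, the T-box factor of conventional NK cells, was found in 67.2% and 65.4%. Itga1, which marks type 1 innate lymphoid cells, was found in 13.5% and 11.4%, and Il7r in 5.91% and 4.76%. Of the T cell genes, the coreceptors were near 0, with 11 and 8 UMIs of Cd8a and 3 UMIs of Cd4 in each genotype, but T cell receptor constant genes were present. Trbc1 was at 337 and 352 counts per 1000000 UMIs and Trbc2 at 161 and 204. Trbc2 was found in 35.6% and 41.4% of unthinned members and Trac in 11.8% and 17.8%.

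Marker sums for other cell types are given beside the free RNA of each matrix (barcodes with 10 to 100 UMIs), and all 8 sums were lower in members than in free RNA. Levels are given in CPM, the UMIs of a gene or list per 1000000 summed UMIs of the members. The 25 macrophage and monocyte markers summed to 3121 CPM in WT and 3630 in KO members, against 12297 and 12067 in free RNA, with Spp1 and Plac8 among the largest. The 3 C1q genes, which define macrophages, were at 57.5 and 33.4 CPM in members, against 1044 and 1504 in free RNA. Neutrophil markers summed to 224 and 117 CPM (free RNA 1201 and 1118), and dendritic cell markers to 730 and 604 (6219 and 7618). T cell markers summed to 704 and 753 CPM (2097 and 2510), and B cell markers to 41.6 and 37.6 (204 and 70.7). Type 2 and type 3 innate lymphoid markers, at 226 and 232 CPM, were closer to their free RNA (319 and 377), as were epithelial markers, at 18.7 and 27.1 CPM (35.9 and 32.8). Stromal, endothelial and erythroid markers summed to 150 and 202 CPM (368 and 390). Of the dendritic cell markers, 2 of 13 in WT and 5 of 13 in KO had 0 UMIs, and of the B cell markers 7 of 11 and 6 of 11.

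At the edge of the rule, 225 WT and 181 KO cells had 1 UMI of Ncr1 plus Klrb1c and stayed outside, and 177 and 151 had 2 and were inside. Their Gzma levels were 4387 and 7717 CPM outside, and 5879 and 7734 CPM just inside. C1qb was at 118 and 112 CPM outside and at 12.97 and 12.5 CPM inside. With 1 Cd3 UMI, 101 WT and 66 KO cells were inside, and 22 and 20 cells with 2 were outside. With 1 UMI of Mki67 plus Top2a, 140 and 59 were inside, and 47 and 22 with 2 were outside. Another 34 and 21 cells had 1 UMI of Csf1r plus Adgre1 and were outside.

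Non-cycling NK cells were a smaller share of the kept cells in KO. Their share was 7.62% in WT (exact binomial interval 7.11 to 8.15). In KO it was 5.41% (4.98 to 5.87), and the KO to WT ratio was 0.711 (0.636 to 0.794). Cycling NK cells, with 2 or more UMIs of Mki67 plus Top2a, were 1.67% and 0.882%. They formed 18.0% (15.6 to 20.6) of all 949 WT NK cells and 14.0% (11.4 to 17.0) of all 635 in KO. CD8 T cells were a larger share in KO, 5.86% in WT and 9.89% in KO, and there were 130 non-cycling NK cells per 100 CD8 T cells in WT and 54.7 in KO. Macrophages were 12.2% and 12.3%, with 62.7 and 44.1 NK cells per 100 macrophages. Shares have a fixed total, so fewer NK cells and more of other cells cannot be told apart.

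**Figure D1:**
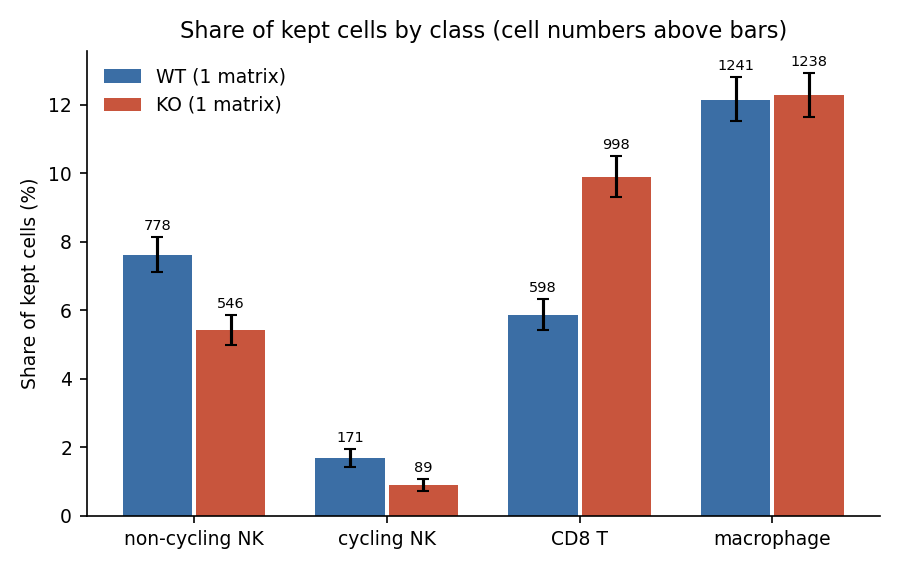
Share of kept cells (%, y axis) in each class (x axis) for the WT and the KO matrix. Bars are shares with exact binomial intervals and cell numbers above them; the bars for non-cycling NK cells stand at 7.62% and 5.41%.

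Ogt itself was at like levels in the NK cells of both genotypes. It was at 118 CPM in WT (exact Poisson interval 110 to 127) and at 116 in KO (107 to 126). Oga, which removes O-GlcNAc, was at 125 and 128 CPM. All 6 measured enzymes of O-GlcNAc cycling and the hexosamine pathway had log2 ratios (KO over WT) between -0.06 and 0.23. Of the EGR factors, Egr1 was at 214 and 179 CPM and Egr2 at 24.3 and 11.9 CPM. Egr3 had 46 and 22 UMIs and was too low for the comparison. In macrophages, the class in which the cre is active, the log2 ratio of Ogt was -0.42.

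Lyz2, the lysozyme gene whose promoter drives the cre, was at 60.3 CPM in WT members and had 1 UMI in the KO members, a WT level 278 times the KO level (interval 49.6 to 11002). It was found in 3.86% of thinned WT members, and 5 cells held 43.4% of its WT UMIs. Lyz2 in free RNA was 1253 CPM in WT and 8.02 in KO. In macrophages Lyz2 was at 4764 CPM in WT and 15.9 in KO. With free RNA subtracted, almost no Lyz2 was left in members of either genotype. The log2 ratio of 0.01 then obtained does not compare measured levels. 

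Across 5880 genes with at least 100 UMIs over both matrices and at least 20 CPM in 1, most levels lay within 1.5-fold. The median log2 ratio, computed on CPM plus a pseudocount of 5 CPM, was 0.00. Scaling both matrices to the same total tends to hold this median near 0, so it does not measure how close the profiles were. The ratio was at least 1.5-fold in 168 genes (2.86%), higher in KO for 43 (0.731%) and lower for 125 (2.13%). The lower genes were 74.4% of these calls, and 62.7% after every cell was thinned to 1000 UMIs. Of the genes higher in KO, 12 belong to a list described here, and of those lower, 30. These shares are the background against which the lists below are read.

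**Figure D2:**
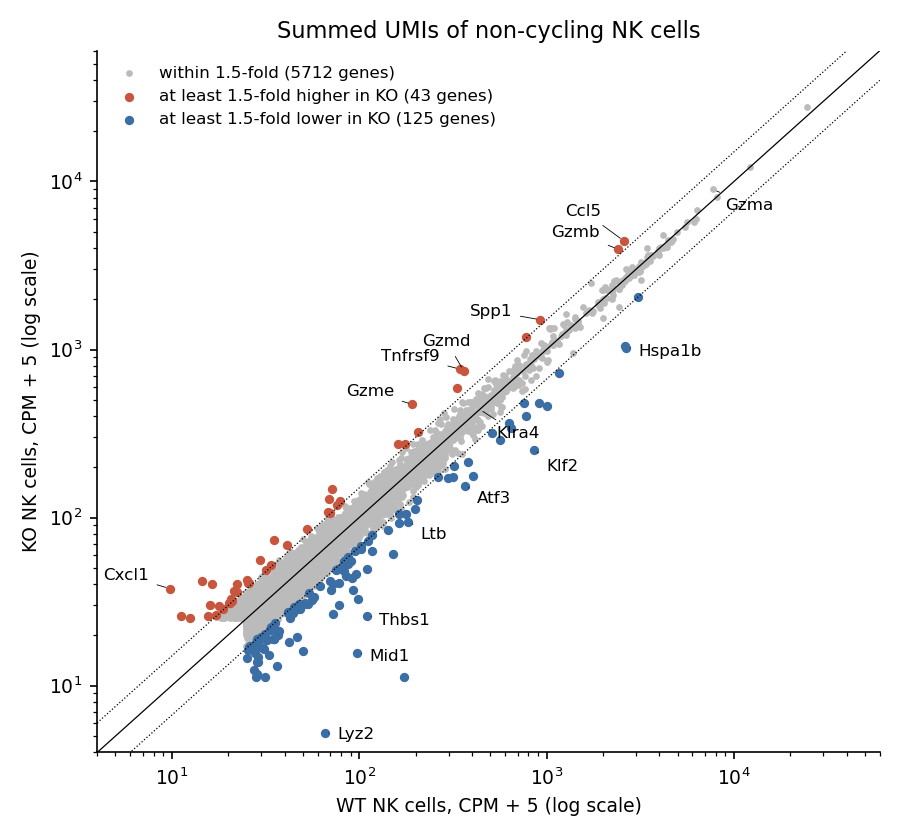
Level of each of 5880 genes in the summed non-cycling NK cells, as CPM plus 5 on log axes, WT on x and KO on y. The solid line marks equal levels and the dotted lines a 1.5-fold difference; 43 genes lie past the upper line and 125 past the lower one, with Klf2, Hspa1b, Tnfrsf9, Gzmb and Ccl5 among the abundant ones.

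Receptors that define NK cells differed little. None of 24 activating receptors and adaptors and none of 11 inhibitory lectin-like receptors reached a 1.5-fold difference either way. The median log2 ratios were -0.03 and 0.03. Ncr1, a gene of the rule, is among the 24, so its ratio is partly set by how the cells were chosen. Klra4 was at 432 CPM (416 to 449) in WT and 437 (418 to 457) in KO. Klra8 was at 311 (297 to 325) and 287 (272 to 303). The signalling adaptor Tyrobp (DAP12), which pairs with both, was at 1459 and 1469 CPM. Klrk1 (NKG2D) was at 315 and 291 CPM, and Klrd1 (CD94), the partner of the NKG2 receptors, at 768 and 809. Ncr1 was at 284 and 220 CPM and Klrb1c at 292 and 279, levels that the rule bounds from below. The largest ratio among the inhibitory receptors above 0 was that of Klra7 (Ly49G), at 375 and 483 CPM, a ratio of 1.29 (1.22 to 1.37).

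Ly49 receptors are switched on largely independently in single NK cells, so that each cell carries its own combination. Of the 11 Klra genes in the file, members of both genotypes had a median of 2 per cell, with at most 7 in WT and 6 in KO. None was found in 13.4% of WT and 12.6% of KO members, and 3 or more in 47.6% and 47.3%. After thinning, none was found in 36.8% and 32.6%, and 2 or more in 26.1% and 34.1%. In thinned cells, Klra4 and Klra8 occurred together in 53 WT and 42 KO cells, 1.23 and 1.29 times the product of their shares. Klra7 and Klra8 occurred together 1.24 and 1.36 times as often, and Klra4 and Klra9 0.937 and 1.21 times. These genes are near-identical in places, and the sources used here do not say how reads fitting several of them were counted.

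Some cytotoxic granule genes were higher in KO. Of 19 measured members 4 were at least 1.5-fold higher and 0 lower. The log2 ratio was above 0 for 12 and below 0 for 7, with a median of 0.19. Gzmb, the granzyme that cleaves caspases in the target, was at 2407 CPM (2369 to 2445) in WT and 3945 (3888 to 4003) in KO, a ratio of 1.64 (1.60 to 1.67). After thinning, 61.8% (58.3 to 65.3) of WT and 73.8% (69.9 to 77.5) of KO members had a Gzmb UMI. Gzma was at 7720 and 8982 CPM, with a median of 5 and 7 UMIs per thinned cell. Prf1 (perforin) was at 826 and 928 CPM and Nkg7, a granule membrane protein, at 1266 and 1629. In cycling NK cells Gzmb stood at 2183 and 4520 CPM, in CD8 T cells at 1666 and 1953, and in free RNA at 952 and 1345. The Gzmb levels of members thus differed in the same direction as those of both other classes and of the free RNA, whose part was not tested.

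The other 3 genes called higher were Gzmd, Gzme and Gzmg, which lie beside Gzmb on mouse chromosome 14 with Gzmc and Gzmf. Their sums rested on few cells. Gzmd was at 356 and 743 CPM, and 5 cells held 62.9% of its UMIs in WT and 70.9% in KO. Gzme was at 188 and 467 CPM, with 56.1% and 78.2% in 5 cells. Gzmg was at 67.0 and 142 CPM, with 98.1% and 95.7% in 5 cells. Before thinning, Gzmd was found in 5.53% of WT and 7.33% of KO members, Gzme in 5.398% and 7.33%, and Gzmg in 1.03% and 4.40%. With the 5 cells richest in each gene left out of each matrix, the log2 ratio of Gzme went from 1.29 to 0.29, that of Gzmd from 1.05 to 0.69 and that of Gzmg from 1.03 to 0.82. Gzmc was more widespread, in 49.7% and 46.3% of members, at 4699 and 4549 CPM. Gzmf was at 190 and 267 CPM, with 95.7% and 95.6% in 5 cells. With Mki67 plus Top2a at 0 the log2 ratio of Gzmg was 4.41, that of Gzme 2.49 and that of Gzmd 2.16.

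Some granzymes of this cluster also fell in the same cells, above all Gzmd and Gzme. In thinned cells Gzmd and Gzme were found together in 15 WT and 10 KO members, 25.6 and 16.0 times the product of their shares. Gzmc and Gzmd were found together 3.23 and 2.94 times as often, Gzmb and Gzmc 1.19 and 1.11 times, and Gzma and Gzmc 0.975 and 0.915 times. The stretches upstream of the start sites of Gzmc to Gzmg are shown because some of these 5 genes occur together in a few cells and the stretches are alike. They come from the RefSeq promoter table (GRCm38.p6, minus strand, written 5′ to 3′), and the capitals mark the longest run that the 250 bases before all 5 start sites share.
Gzmc: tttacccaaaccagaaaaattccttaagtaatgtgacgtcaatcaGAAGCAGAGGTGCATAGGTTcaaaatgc
Gzmd: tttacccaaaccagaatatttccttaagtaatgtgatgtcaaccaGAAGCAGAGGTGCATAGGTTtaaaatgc
Gzme: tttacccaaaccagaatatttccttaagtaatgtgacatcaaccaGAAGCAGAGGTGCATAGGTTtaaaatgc
Gzmf: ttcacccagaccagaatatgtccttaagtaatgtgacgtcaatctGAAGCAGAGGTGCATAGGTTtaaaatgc
Gzmg: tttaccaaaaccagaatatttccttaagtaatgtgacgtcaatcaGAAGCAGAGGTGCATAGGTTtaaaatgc
These lie at chr14:56234675-56234747 for Gzmc, chr14:56132615-56132687 for Gzmd, chr14:56120648-56120720 for Gzme, chr14:56211450-56211522 for Gzmf and chr14:56159617-56159689 for Gzmg. The shared run of 20 bases was found, on either strand, in 5 of 32851 promoters of the table, those of these 5 genes. Over the printed 73 bases, Gzmd and Gzme were identical at 71 and Gzmc and Gzmf at 66, the most and the least alike of the pairs. The printed stretches lie before the start sites, and the transcripts themselves were not compared. As it is not given how reads fitting several genes were counted, the separate counts of the 5 genes are uncertain.

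Among death ligands, cytokines and chemokines, 2 of 16 measured genes were at least 1.5-fold higher and 4 lower. Ccl5, a chemokine for T cells and dendritic cells, was at 2577 CPM (2538 to 2617) in WT and 4432 (4372 to 4493) in KO. It was found in 61.4% and 70.5% of thinned members. Ccl5 was also higher in KO in CD8 T cells (3137 and 4895 CPM), in macrophages (122 and 270) and in free RNA (1061 and 1485). Spp1 (osteopontin) was at 922 and 1499 CPM and in 18.6% and 21.4% of thinned members, with intervals that overlap. Xcl1, the chemokine for cross-presenting dendritic cells, was lower, at 1158 CPM (1132 to 1185) and 722 (698 to 747), and was found in 43.7% and 33.0% of thinned members. Ltb (lymphotoxin beta) was at 178 and 89.0 CPM, Csf2 (GM-CSF) at 29.5 and 13.9 (1 cell held 57 of 186 UMIs in WT and 1 held 44 of 64 in KO), and Tnfsf14 (LIGHT) at 22.2 and 12.2. Ifng was at 222 and 180 CPM, and the death ligand gene Fasl at 77.5 and 81.0.

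Tnfrsf9 (4-1BB), a costimulatory receptor that appears on activated NK and T cells, was among the 12 genes with the largest ratios above 1. It was at 340 CPM (326 to 355) in WT and 759 (734 to 785) in KO, a ratio of 2.23 (2.11 to 2.35). It was found in 23.01% (20.1 to 26.1) of thinned WT members and 45.2% (41.0 to 49.5) of KO members. No single cell held it: the 5 richest had 9.89% and 9.64% of its UMIs. Tnfrsf9 also differed in cycling NK cells (312 and 737 CPM), CD8 T cells (231 and 515), macrophages (7.85 and 84.3) and free RNA (211 and 519). Its ligand gene Tnfsf9 was lower in KO members, at 31.4 and 8.04 CPM. Of 17 measured checkpoint and costimulatory receptors, Tnfrsf9 was the 1 past 1.5-fold, and 12 had a log2 ratio below 0. Tnfrsf18 (GITR) was at 106 and 158 CPM, Havcr2 (TIM-3) at 23.98 and 22.1, Tigit at 23.2 and 19.1 and Lag3 at 28.7 in both.

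**Figure D3:**
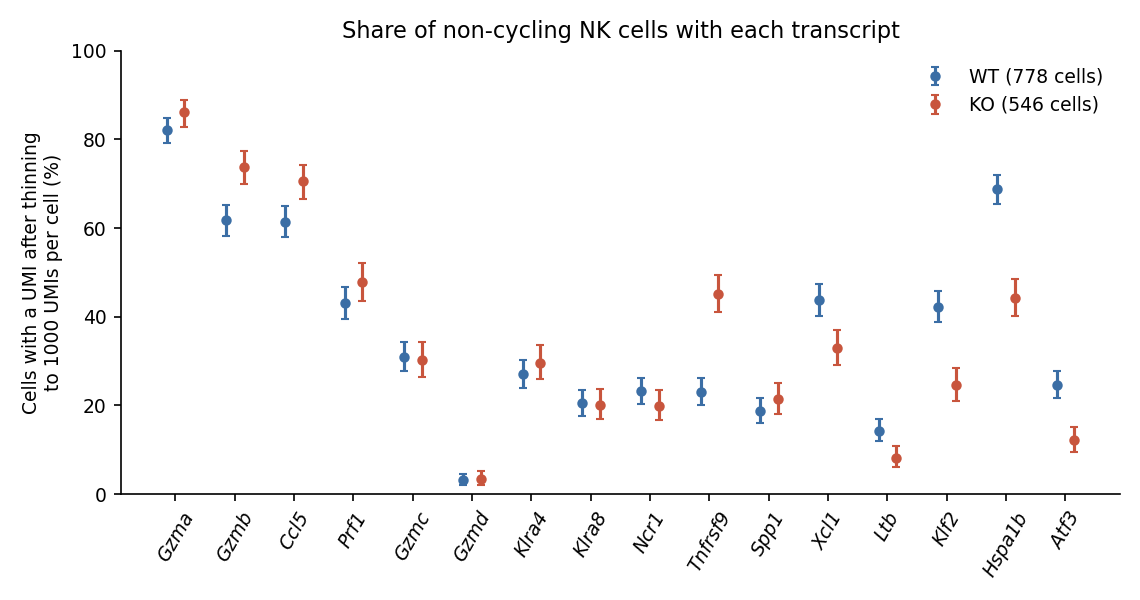
Share of non-cycling NK cells (%, y axis) with at least 1 UMI of each gene (x axis) after every cell was thinned to 1000 UMIs, with exact binomial intervals. Tnfrsf9 was found in 23.01% of WT and 45.2% of KO cells, Hspa1b in 68.8% and 44.3%, and Klra8 in 20.4% and 20.1%.

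Klf2, a factor that sustains quiescence and the exit of lymphocytes from tissue, was among the 12 genes with the lowest ratios. It was at 848 CPM (826 to 871) in WT and 247 (233 to 262) in KO, a ratio of 0.291 (0.273 to 0.310). Klf2 was found in 42.3% (38.8 to 45.8) of thinned WT members and 24.5% (21.0 to 28.4) of KO members. It was lower in KO in each class measured: 602 and 212 CPM in cycling NK cells, 797 and 215 in CD8 T cells, 1206 and 679 in macrophages, and 1210 and 689 in free RNA. Of 31 measured NK transcription factors, 4 were at least 1.5-fold lower and 0 higher, the others being Klf6 (508 and 315 CPM), Tcf7 (79.4 and 47.8) and Rora (112 and 73.2). The factors that set NK identity were close, with Eomes at 210 CPM in both and Tbx21 (T-bet) at 242 and 213. Of 16 maturation and circulation genes, Ly6c2 was past 1.5-fold higher (171 and 270 CPM) and Klf2 lower. The integrin Itgam (CD11b), a maturation marker, was at 59.7 and 55.4 CPM.

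Immediate early and stress genes had the lowest median ratio of the 21 lists. Immediate early genes are switched on within minutes of a stimulus, and both they and heat shock genes are known to respond to tissue dissociation. Of 35 measured, 12 were at least 1.5-fold lower in KO and 1 higher (Ier3, at 70.8 and 114 CPM, with 134 of the 524 KO UMIs in 1 cell), and the median log2 ratio was -0.35. The chaperone genes Hspa1b and Hspa1a (inducible Hsp70) were at 2662 and 2621 CPM in WT and at 1022 and 1049 in KO, ratios of 0.384 (0.372 to 0.397) and 0.400 (0.387 to 0.413). Hspa1b was found in 68.8% of thinned WT members and 44.3% of KO members. Their co-chaperone Dnajb1 was at 1005 and 454 CPM, and Hsp90aa1 at 3090 and 2040. Among transcription factors, Atf3 was at 360 and 149 CPM, Fos at 398 and 172, Jun at 637 and 336 and Nr4a1 at 561 and 285.

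The sums per cell were lower in KO at all quartiles and in the other classes too. Over 10 heat shock genes, a set chosen after their values were seen, thinned WT members had a median of 15 UMIs per cell (quartiles 6 and 26) and KO members 7 (quartiles 3 and 14). The medians were 18 and 11 in CD8 T cells, 12 and 7 in macrophages and 12 and 6 in cycling NK cells. Over the whole immediate early and dissociation list the medians were 31 and 22 UMIs in members, 31 and 24 in CD8 T cells and 37 and 29 in macrophages. The list summed to 40585 CPM in the free RNA of WT and 33794 in that of KO. The handling of the 2 matrices and the genotype cannot be told apart in these values, and the part of either in the other differences of the report was not tested.

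Hspa1a and Hspa1b lie beside each other on mouse chromosome 17, and the 250 bases before their start sites were identical at 247 positions. The stretch around the heat shock element core in this region is shown because the 2 genes gave nearly the same values. It is identical in both genes, at chr17:34972227-34972286 for Hspa1a and chr17:34959309-34959368 for Hspa1b (GRCm38.p6, minus strand), and the capitals mark the match to GAANNTTC.
Hspa1a and Hspa1b: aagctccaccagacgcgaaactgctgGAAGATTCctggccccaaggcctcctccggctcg
The motif reads the same on both strands and was found in the 250 bases before 2199 of 32851 RefSeq start sites (6.69%). Of the 10 heat shock genes, 8 had an entry in the promoter table, and a match was found before at least 1 start site of Hspa1a, Hspa1b, Hspd1, Hspe1 and Dnaja4. A match of this length is a description of the letters. As the 2 transcripts are also near-identical, their counts are uncertain singly.

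Interferon-stimulated genes leaned to WT with small differences. Of 33 measured, 4 were at least 1.5-fold lower in KO, 0 were higher and 28 had a log2 ratio below 0, with a median of -0.20. Over all tested genes, 49.9% had a ratio below 0. The 4 were Slfn5 (22.5 and 7.38 CPM), Ifi213 (43.0 and 25.4), Ifi27l2a (158 and 100.1) and Rtp4 (29.1 and 17.4). The median of the same genes was -0.54 in cycling NK cells, -0.44 in CD8 T cells and -0.02 in macrophages. With free RNA subtracted the log2 ratio of Ifi27l2a was 0.19 in place of -0.64. The amount subtracted was set by the C1q genes, at 5.51% of WT and 2.22% of KO member UMIs. For C1qb, 5 cells held 59.2% of the UMIs in WT and 54.7% in KO. The part of this unequal subtraction in the change of sign was not tested. The chemokine gene Cxcl10, which interferon induces, was at 773 and 397 CPM.

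Metabolic lists held few genes past 1.5-fold, though the glycolysis and hypoxia list had the highest median of the 21 lists. Of 25 measured glycolysis and hypoxia genes, 17 had a log2 ratio above 0, with a median of 0.22. Hilpda, a lipid droplet gene induced by hypoxia, was past 1.5-fold higher (202 and 317 CPM), and Vegfa past 1.5-fold lower (374 and 209). The glycolytic enzyme genes Eno1 and Ldha were at 278 and 413 CPM and at 482 and 659 CPM. Of 16 genes of the integrated stress and unfolded protein response, 13 were above 0 and none reached 1.5-fold, with the chaperone Hspa5 (BiP) at 1093 and 1330 CPM. Of 31 respiratory chain genes 26 were above 0 and none reached 1.5-fold, with a median of 0.07. Among the cholesterol synthesis genes Fdps was past 1.5-fold higher (24.6 and 51.3 CPM), and of 18 genes of MYC, mTORC1 and amino acid use, Myc itself was lower (86.5 and 38.9). Among 20 MHC class I genes H2-Q7 was past 1.5-fold higher, at 769 and 1184 CPM. Among 21 survival genes Pmaip1 (Noxa), which promotes apoptosis, was lower (46.0 and 25.6).

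The remaining lists held few calls. Of 25 cytokine receptor and JAK-STAT genes 1 was lower (Il10ra, 70.3 and 43.9 CPM), and of 9 residency genes 1 was lower (Gpr183, 97.7 and 62.8). None of 9 chemokine receptor and migration genes reached 1.5-fold, with Cxcr4 at 258 and 193 CPM. None of 22 cell cycle genes outside the rule did so either, with a median of -0.10.

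Of the 12 largest ratios each way, several rested on single cells or appeared in every class. In KO, 1 cell held 125 of the 151 UMIs of Cxcl1, and 1 cell held 69 of the 171 UMIs of Mt2. Without the 5 richest cells the log2 ratio of Cxcl1 was -0.13 in place of 1.95, and that of Mt2 0.86 in place of 1.54. For the neutrophil gene G0s2, 5 cells held 77.5% of the WT UMIs, as they held 86.4% for S100a9, a neutrophil gene outside the 12. Mid1 was at 92.7 and 10.6 CPM in members, with log2 ratios of -2.64 in members, -2.51 in CD8 T cells and -2.03 in macrophages. H2-T10, a nonclassical MHC class I gene, was at 30.0 and 68.8 CPM, with log2 ratios of 1.08, 1.62 and 1.59. Zfp955b was at 11.4 and 34.97 CPM, with 1.28, 1.41 and 0.41. Thbs1 (thrombospondin) was at 105 and 20.8 CPM in members and at 1289 and 885 CPM in free RNA. Bag3 and Dnaja4, 2 further co-chaperone genes, were at 93.1 and 27.6 CPM and at 67.3 and 21.5 CPM. The long noncoding gene Dleu2 was at 146 and 55.4 CPM, and Cd83 at 73.2 and 25.2. Apoe, at 23.2 and 6.30 CPM, had 58.2% of its WT UMIs in 5 cells. Avil, Zfp948 and Pou2f2 completed the higher genes, at 6.19 and 21.1, 7.46 and 20.2, and 11.0 and 24.98 CPM.

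Part of the genes called in members differed the same way elsewhere. Of the 125 lower genes, 96 had at least 20 CPM in cycling NK cells and 61 of these were at least 1.5-fold lower there, with 1 past the fold the other way. In CD8 T cells the same held for 63 of 109, with 2 the other way, and in macrophages for 20 of 93, with 2 the other way. Over all genes at that level, 5.18% were lower in cycling NK cells, 2.84% in CD8 T cells and 0.764% in macrophages. Of the 43 higher genes, 17 of 30 were higher in cycling NK cells (2 the other way), 9 of 31 in CD8 T cells (1 the other way) and 7 of 25 in macrophages (1 the other way). Over all genes 1.35%, 1.23% and 1.22% were higher. All classes of a genotype come from 1 matrix, so these counts are no independent repeats.

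**Figure D4:**
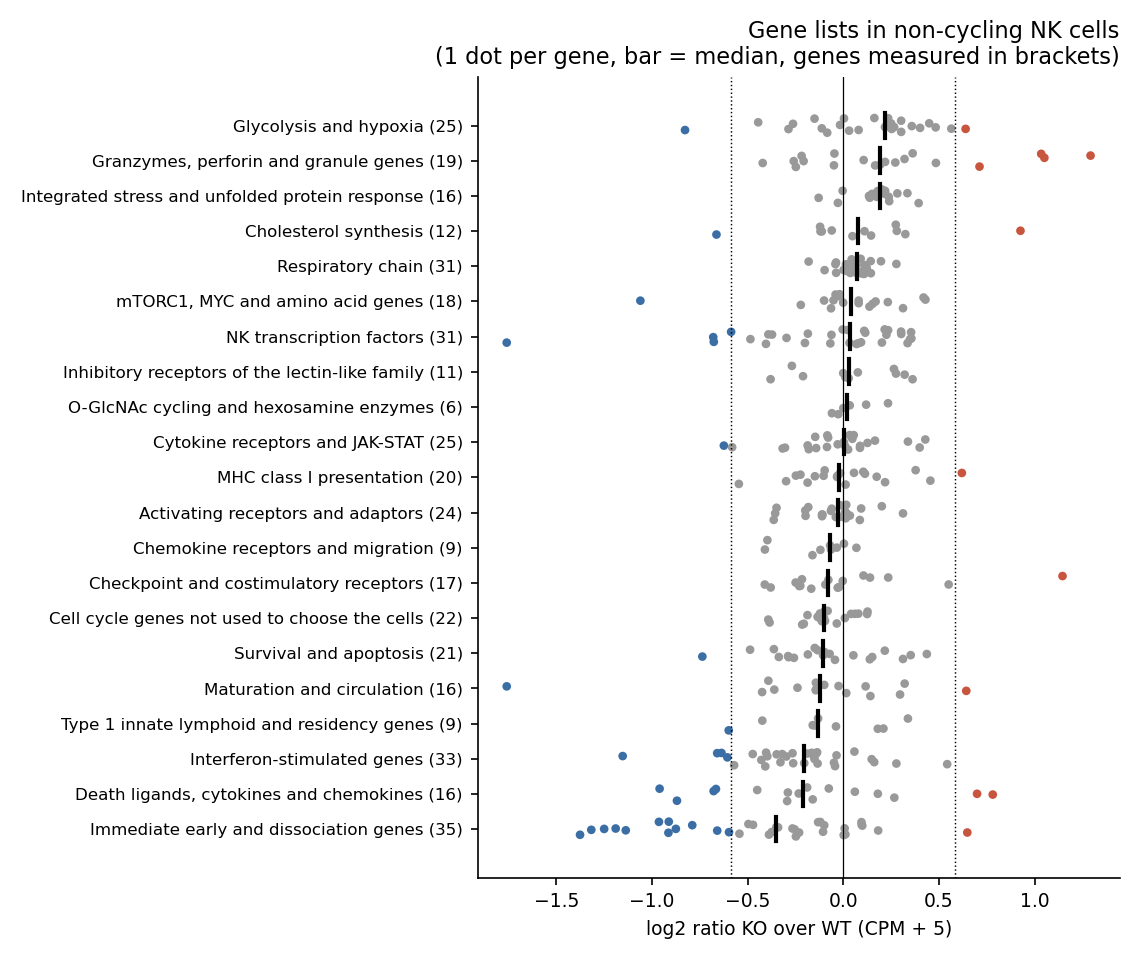
Log2 ratio of KO over WT (x axis) for the measured genes of 21 lists in non-cycling NK cells, 1 dot per gene, with the median as a bar and dotted lines at a 1.5-fold difference. The immediate early and dissociation list lies lowest (median -0.35) and the glycolysis list highest (median 0.22).

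Among the members themselves, granzymes and chemokines stood highest in 1 measure of variation. The measure is the variance over the mean of thinned UMIs, which is near 1 for counting noise alone. Its median over 5104 genes was 1.05 in WT and 1.04 in KO. It was 17.6 and 18.1 for Gzmf, 17.6 and 14.5 for Gzmc and 12.9 and 12.6 for Gzmd. The chemokine genes Ccl5 (9.49 and 15.0), Ccl4 (7.995 and 13.1), Cxcl2 (11.6 and 11.4) and Cxcl10 (5.81 and 7.76) followed, with Gzma at 7.81 and 9.78. Spp1 (5.37 and 8.53), S100a9 (5.35 and 5.51), the nuclear RNA Malat1 (5.51 and 5.53) and Tmsb4x (5.82 and 6.91) completed the 12 highest. Genes were ranked by the smaller of the WT and KO values. The measure can rise with abundance, and Tmsb4x and Malat1 had means of 21.8 and 14.0 thinned UMIs in WT. It can also rest on few cells, as Gzmf was found in 1.41% of thinned WT and 0.916% of thinned KO members. Ccl3 and Ccl4, neighbouring chemokine genes, were found together in 31 WT and 21 KO thinned cells, 2.39 and 3.30 times the product of their shares.

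Gzma varied over a wide range, from 2 to 11 thinned UMIs between the quartiles in WT and from 2 to 13 in KO. The cells at or below the lower quartile (250 WT, 146 KO) were set beside those at or above the upper one (199 WT, 144 KO), a split chosen after seeing the data, with Gzma left out of the totals. The lower edge held 56 and 32 cells and the upper edge 28 and 22, so the groups are ends of a range, not types. Median depths were 7634.5 and 7191 UMIs in WT, and 8298 and 6636 in KO, for the low and the high end. Of 5704 genes, 40 (0.701%) were at least 1.5-fold higher at the high end in both matrices and 163 (2.86%) lower.

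Of the lists, the inhibitory lectin-like receptors had 5 of 11 measured members past 1.5-fold higher at the high end in both matrices and 0 lower. The granule genes had 3 of 18 higher (Gzmb, Prf1 and Nkg7) and 0 lower. The maturation and circulation list was split, with 3 of 16 higher (Klrg1, Itgam and Itga2) and 2 lower (Kit and Emb), and Ly6c2 had log2 ratios of -0.47 in WT and -0.71 in KO. Klrg1, a receptor of terminal maturation, stood at 33.2 CPM at the low end and 107 at the high end in WT, and at 33.1 and 105 in KO. Gzmb was at 1548 and 4411 CPM in WT and at 2405 and 6515 in KO. Prf1 was at 523 and 1341, and at 646 and 1386. Ccl5 was at 1394 and 3221, and at 1627 and 6765. The integrins Itgam (37.9 and 90.9; 19.9 and 78.6) and Itga2 (51.0 and 98.2; 60.3 and 126), the ectonucleotidase gene Entpd1 (36.5 and 83.0; 41.9 and 88.4) and the Ly49 genes Klra4 and Klra9 went the same way. Serpinb9b, of the serpin family that inhibits granzymes, had log2 ratios of high over low of 1.73 in WT and 2.46 in KO.

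Immediate early and dissociation genes were higher at the low end, with 11 of 34 measured members past 1.5-fold in both matrices and 0 past it the other way. Fos was at 520 CPM at the low and 191 at the high end in WT, and at 234 and 66.5 in KO. Atf3 was at 463 and 270, and at 193 and 73.8, and Hspa1a at 2891 and 1878, and at 1294 and 649. The part of this signal in the other differences between the ends was not tested. Among type 1 innate lymphoid and residency genes 5 of 11 were past 1.5-fold higher at the low end, as were 4 of 30 NK transcription factors, 4 of 31 interferon-stimulated genes and 4 of 12 cytokine genes. Tcf7, a factor of early NK cells, was at 119 CPM at the low and 28.5 at the high end in WT, and at 73.5 and 16.2 in KO. The transcription factor gene Lef1 went the other way, at 88.4 and 136 CPM in WT and at 64.0 and 144 in KO. Xcl1 was higher at the low end, at 1838 and 502, and at 1135 and 361. Rora (221 and 38.2; 155 and 27.6), Ltb (263 and 131; 153 and 56.7), Kit (108 and 53.3; 133 and 43.8) and Il2ra (90.8 and 27.9; 103 and 35.7) went the same way, as did the interferon-induced genes Ifit1 (116 and 30.9; 125 and 18.6) and Rsad2 (145 and 35.7; 132 and 32.4). The log2 ratios of high over low lay between -0.24 and 0.22 for Ncr1, Eomes and Tbx21. Klrb1c was higher at the high end, at 220 and 326 CPM in WT and at 208 and 325 in KO. The low end also had more Cd74, a gene of antigen-presenting cells, at 348 and 73.3 CPM in WT and 382 and 75.4 in KO. Summed dendritic cell markers (890 and 488; 988 and 482) and type 2 and type 3 innate lymphoid markers (251 and 217; 253 and 222) were also higher there. Macrophage and monocyte markers (3266 and 3670; 3717 and 4019) and T cell markers (690 and 756; 757 and 802) were lower there. Neutrophil markers (326 and 332; 290 and 16.2) and B cell markers (45.8 and 37.0; 39.0 and 40.5) differed between the matrices. The low end held 15 of 250 and 6 of 146 cells marked as doublets, against 3 of 199 and 2 of 144 at the high end. The part of mixed cells in the low end was not tested. Klf2 was at 794 and 707 CPM in WT and at 207 and 197 in KO, and Tnfrsf9 at 347 and 408 and at 680 and 928, so the difference between genotypes in both genes was present at either end.

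**Figure D5:**
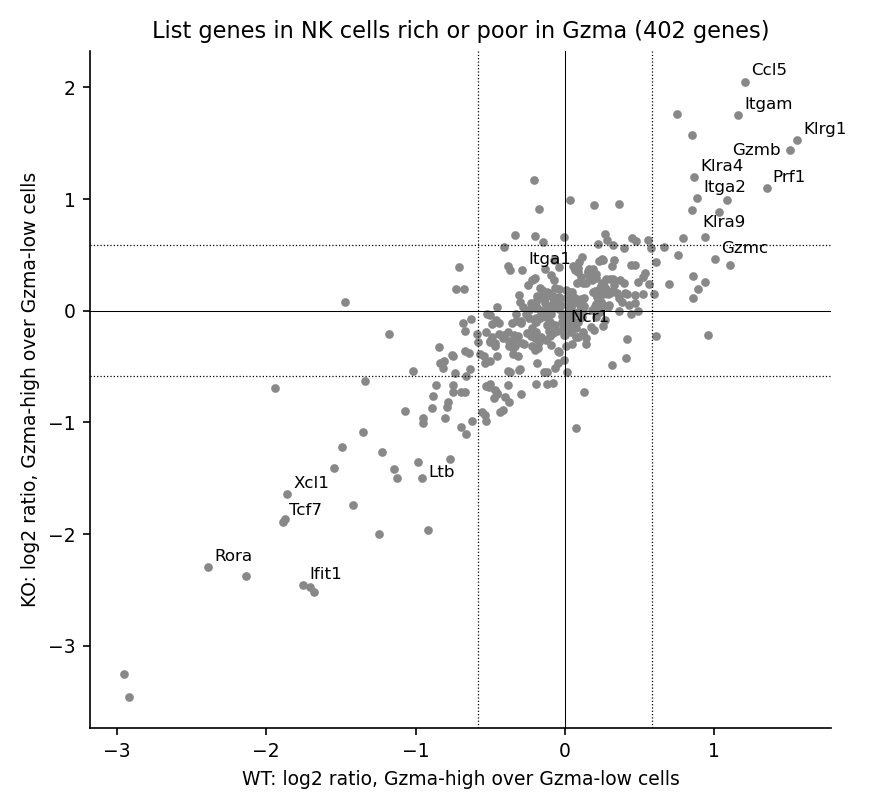
Log2 ratio of Gzma-high over Gzma-low non-cycling NK cells for the genes of the lists, in WT (x axis) and KO (y axis); 1 dot per gene and dotted lines at 1.5-fold. Klrg1, Gzmb, Itgam and Ccl5 lie past the line in both matrices at the upper right, and Rora, Tcf7 and Xcl1 at the lower left.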

How the data were processed

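Tumour CD45-positive cells were measured by droplet single cell RNA-seq. The deposited matrices hold raw UMI counts per gene and barcode, made by the authors from reads processed, per the file headers, by Cell Ranger 8.0.1, and every barcode is included. The build mm10 is named in the submitters' processing notes. The sources used here do not give read filters or how reads that fit several genes were counted. The cells, gene lists and rules were chosen with earlier results of these data known.

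Cells were filtered and chosen as described in the report, and raw counts were summed per genotype, scaled to CPM and compared as log2 of (CPM + 5). With 1 matrix per genotype no test was made, and a gene was called past 1.5-fold. The calling was tried on simulated Poisson counts with set folds and no variation among cells. That trial cannot show how calls behave for genes held by a few cells. Named genes were those of the rule, the markers, Ogt, Oga, Egr1 to Egr3 and Lyz2, the 12 largest ratios each way, up to 4 per list (21 lists and 8 marker lists) and the 12 most variable; predicted, mitochondrial, receptor segment and sex-linked genes were left out of the largest ratios. Genes named beside them were chosen after their values were seen. Intervals are exact Poisson for a level, exact binomial (Clopper-Pearson) for a share and exact conditional binomial for a ratio. PCR duplicates are removed by the UMIs. Python 3.11.15, numpy 2.4.6, scipy 1.17.1 and scanpy 1.11.5 (Scrublet) were used. Bulk RNA, peak and other files of the series were not used here, and 1 named gene is not reported here.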

Additional observations from a re-analysis of the deposited data

How the results depend on the processing

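No paired analysis was possible because each genotype comes as 1 matrix and its barcodes do not tell samples S1 and S2 apart; for the same reason no replicate could be left out. The ratio of NK shares lay between 0.666 and 0.773 over 7 other cell filters, the last of which (1 UMI of Ncr1 plus Klrb1c, ratio 0.734) was chosen after seeing the data. The counts of genes past 1.5-fold follow the pseudocount and the filter on low counts: 19 higher and 57 lower with a pseudocount of 20 CPM, 24 and 82 with a minimum of 300 UMIs over both matrices, and 80 and 257 with no filter, against 43 and 125. Thinning to 1000 UMIs left 2328 genes measured and gave 44 higher and 74 lower, of which 12 and 28 are among the 43 and 125, so 62.7% of the calls were lower in place of 74.4%. Of the 125 lower genes 116 stayed past the fold without each gene's 5 richest cells, and of the 43 higher genes 37 did, an alternative also added after seeing the data. This setting favours lower ratios, as 5 cells are a larger part of 546 KO than of 778 WT members and the full totals were kept. In it the median log2 ratio of the tested genes was -0.03, with 39 genes higher and 168 lower.

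Of 53 named genes past 1.5-fold, 25 stayed past it under all 15 settings tried for single genes, and 10 had the other sign under at least 1 of them. In thinned cells the log2 ratio was 0.038 for Apoe, -0.55 for Avil, 0.020 for Egr2, -0.13 for Fdps and 0.18 for S100a9, as for the median of the neutrophil markers (0.18). It was 0.11 for C1qb without Scrublet doublets and -0.13 for Cxcl1 without its 5 richest cells. With free RNA subtracted it was 0.19 for Ifi27l2a and 0.011 for Lyz2, of which almost nothing was then left. The amount subtracted was set by the C1q genes and was unequal, at 5.51% of WT and 2.22% of KO member UMIs. The ratios of Klf2 lay between -1.86 and -1.48, Hspa1b between -1.48 and -1.27, Tnfrsf9 between 1.10 and 1.28, Gzmb between 0.64 and 1.02 and Ccl5 between 0.69 and 0.91.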
